A study of Mus musculus with 20 samples.

Results

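Complex I, or NADH:ubiquinone oxidoreductase, is the largest enzyme of the mitochondrial respiratory chain, and its nuclear-encoded subunits were followed here in the left ventricle of mice fed 1 of 4 statins. The genes were chosen by symbol alone, as those whose annotated mouse symbol begins with Ndufa, Ndufb, Ndufc, Ndufs or Ndufv followed by a digit. Of 18193 genes with a probe set of 1 symbol on the array, 35 matched, and each was represented by its brightest probe set over the 20 arrays. The brighter 22518 probe sets were tested, and 34 of the 35 genes were among them. Ndufb4 was not, with a mean signal of 15.1 against 81.8 for the dimmest probe set tested. Ndufa4 and Ndufa4l2 match by symbol only: the product of Ndufa4 is now assigned to complex IV (cytochrome c oxidase), and Ndufa4l2 encodes a relative of it known as a target of hypoxia-inducible factor. Ndufa11, Ndufa11b, Ndufb4b, Ndufb4c, Ndufs5-ps, Ndufs6 and Ndufs6b were represented by probe sets of several symbols only and were not analysed here. Ndufab1, the acyl carrier subunit, falls outside the symbol pattern.

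The series compares 20 male C57BL/6J mice, which reached the laboratory at 6 weeks of age and were acclimated for 2 weeks. Standard chow was fed for 4 weeks, alone to controls and mixed with crushed tablets in the statin groups: pitavastatin calcium at 4.5 mg/kg/day, pravastatin sodium at 21.0 mg/kg/day, rosuvastatin calcium at 10.9 mg/kg/day or atorvastatin calcium hydrate at 11.4 mg/kg/day. Each group held 4 mice, with 1 Affymetrix array per mouse and amplified cDNA from 100 ng of left ventricular RNA. Statins block the rate-limiting step of cholesterol synthesis. The doses differed, so statins are set side by side, and the 4 comparisons with control share the same 4 control mice. The mice were healthy animals of 1 strain and sex, and doses were set from the amount of chow eaten.

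Complex I passes electrons from NADH to ubiquinone and pumps protons across the inner mitochondrial membrane. Its core subunits carry the flavin, the iron-sulphur clusters and the proton pumps, the last encoded by mitochondrial DNA; the accessory subunits surround the core and serve assembly and stability. The arm in the matrix is made of an N module, where NADH is oxidised, and a Q module, where ubiquinone is reduced, while the membrane arm has a proximal and a distal part. Heart muscle is dense in mitochondria and depends on this enzyme for most of its ATP.

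Promoters were read because most of the genes varied together from array to array, as described below. Whether the motifs bear on that variation was not tested. RefSeq windows of 300 bases (build GRCm38.p6, 250 before and 50 after the start of a gene) were at hand for 31 of the 35 genes, in 33 windows. On either strand, the NRF1 motif was in 6 of these windows (18.2%, from 5 genes) against 4.6% of all 32851 windows. The YY1 motif AAGATGGCG was in 4 (12.1%) against 1.4%. The ETS motif CCGGAAG was in 4 (12.1%) against 8.86%, and the ERR motif AAGGTCA in 3 (9.1%) against 4.72%. These shares rest on few windows and were not tested. The GC box GGGCGG was in 45.5% against 35.7%, CCAAT in 27.3% against 37.4% and the TATA box TATAAA in 15.2% against 13.6%. Of the 31 genes, 14 held at least 1 of the first 4 motifs, and 0 pairs of matches of different motifs overlapped. The share with any of the 4 was not computed over all windows, so nothing is read from the count of 14. Shown first are the windows of the 3 genes whose levels followed the other members most closely, Ndufb5 (chr3:32736813-32737112 on the plus strand), Ndufb2 (chr6:39592315-39592614 on the plus strand) and Ndufs7 (chr10:80249199-80249498 on the plus strand). They are followed by Ndufa8 (chr2:36049289-36049588 on the minus strand), the gene with the lowest value under atorvastatin, and Ndufb1 (chr12:101975689-101975988 on the minus strand), which followed the others least. Each runs 5′ to 3′ on the strand of the gene, and capitals mark a match to NRF1, YY1, ETS or ERR.
Ndufb5: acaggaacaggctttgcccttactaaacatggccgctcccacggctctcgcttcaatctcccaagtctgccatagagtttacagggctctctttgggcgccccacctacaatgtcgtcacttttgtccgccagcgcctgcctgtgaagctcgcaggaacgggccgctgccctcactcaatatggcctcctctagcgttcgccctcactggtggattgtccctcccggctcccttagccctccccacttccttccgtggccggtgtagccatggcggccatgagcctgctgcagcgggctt
Ndufb2: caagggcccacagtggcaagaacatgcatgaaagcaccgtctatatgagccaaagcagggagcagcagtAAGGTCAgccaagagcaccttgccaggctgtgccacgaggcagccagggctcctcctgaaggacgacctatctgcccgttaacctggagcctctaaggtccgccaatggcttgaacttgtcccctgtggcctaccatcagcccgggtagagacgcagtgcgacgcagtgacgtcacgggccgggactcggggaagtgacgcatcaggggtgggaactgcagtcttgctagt
Ndufs7: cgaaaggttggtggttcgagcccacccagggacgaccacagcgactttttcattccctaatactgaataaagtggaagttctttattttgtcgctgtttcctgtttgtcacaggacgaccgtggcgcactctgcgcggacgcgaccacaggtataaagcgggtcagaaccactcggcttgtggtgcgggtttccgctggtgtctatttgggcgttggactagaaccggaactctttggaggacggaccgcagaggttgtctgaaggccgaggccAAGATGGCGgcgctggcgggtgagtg
Ndufa8: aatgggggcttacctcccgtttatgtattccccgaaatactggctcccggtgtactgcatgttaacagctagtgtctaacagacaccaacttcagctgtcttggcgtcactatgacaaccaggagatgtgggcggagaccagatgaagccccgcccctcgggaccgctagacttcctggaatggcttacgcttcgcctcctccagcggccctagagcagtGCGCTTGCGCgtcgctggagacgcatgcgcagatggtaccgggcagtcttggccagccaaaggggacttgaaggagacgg
Ndufb1: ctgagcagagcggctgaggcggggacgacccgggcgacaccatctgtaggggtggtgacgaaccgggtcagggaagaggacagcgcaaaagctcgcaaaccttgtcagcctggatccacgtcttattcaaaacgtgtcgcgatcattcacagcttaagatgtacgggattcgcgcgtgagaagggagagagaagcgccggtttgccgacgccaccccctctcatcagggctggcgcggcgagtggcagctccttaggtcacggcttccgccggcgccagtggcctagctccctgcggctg
The window of Ndufb2 held 1 ERR match, that of Ndufs7 held 1 YY1 match and that of Ndufa8 held 1 NRF1 match. Ndufb5, at the top of the order, and Ndufb1, at its end, held none of the 4. A match is a description of the letters in the window and no evidence of binding.

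Most complex I transcripts were among the brightest on the array. The mean signal of 32 of the 34 tested genes ran from 7623 (Ndufs5) to 42490 (Ndufc1), while the 99th percentile signal of the arrays ran from 10844 to 14766. Ndufa4l2 at 314 and Ndufb1 at 98.3 were far dimmer. The 95% interval for the difference of a member between a statin and control reached 0.32 to either side in the median over the 34 genes, on the log2 scale, from 0.19 for Ndufs4 to 0.60 for Ndufb1. All values below are log2(signal + 16) or differences of it, which for bright genes are close to log2 ratios of signal.

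Arrays had been scaled to 1 level (a trimmed mean signal of 500.0 on each), but their shape differed. The median signal ran from 41.7 on the rosuvastatin 3 array to 144 on the atorvastatin 2 array. It did not separate the groups by two-sided exact permutation test (lowest p = 0.171, rosuvastatin against control, where 0.0286 is the smallest possible). Probes for 18S ribosomal RNA were 1.5-fold as bright with pravastatin and 1.46-fold with rosuvastatin as in controls (exact p = 0.0286 for each, 0.286 adjusted over 20 such array tests, higher in 4 of 4 mice of each group than in any control). All 12 cardiomyocyte markers passed the filter, the lowest signal of any being 11132, so the labelled tissue is borne out by heart muscle transcripts.

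No complex I gene passed the test in any statin against control. By limma with Benjamini-Hochberg adjustment over all 22518 probe sets, 0 of 34 genes were called for each of the 4 statins, against a background of 0% of all probe sets in each comparison. At an unadjusted p under 0.05 the count was also 0 of 34 in each, against 1.93%, 3.93%, 11% and 4.57% of all probe sets. The lowest adjusted p of a member was 0.9999 for pitavastatin, 0.992 for pravastatin, 0.477 for rosuvastatin and 0.964 for atorvastatin. With the median signal of the array in the fit the count of calls was again 0 of 34 in each, against 0% of all probe sets, or 0.0266% for pravastatin.

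The direction of the small differences was shared within a group. With pitavastatin, 32 of 34 genes had a log2 fold change above 0, against 49% of all probe sets, and the median was 0.12. With pravastatin 32 were below 0 (55% of all probe sets; median -0.10), with rosuvastatin 29 (54.1%; median -0.10) and with atorvastatin 33 (56.1%; median -0.11). The medians over all tested probe sets were -0.003, -0.02, -0.02 and -0.03. The members are not independent of each other.

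These directions depended on how the brightness of the arrays was treated. With the array median signal in the fit, the medians were 0.135 for pitavastatin (32 of 34 above 0, against 51.4% of all probe sets), -0.07 for pravastatin (32 below, against 53%), 0.03 for rosuvastatin (21 above, against 45.9%) and -0.08 for atorvastatin (29 below, against 53.7%). Rosuvastatin thus went from 29 genes below control to 21 above it, and each array centred on its own median gave 34 of 34 above control with a median of 0.28. The count of 21 did not hold up when single arrays or settings were changed in the same fit: it was 4 without rosuvastatin 2, 15 without control 1, 17 without atorvastatin 1, 7 with a replicate block, 14 under quantile normalization and 16 with the mean of all probe sets of a gene. The 29 below control with atorvastatin became 17 without atorvastatin 1, 15 without atorvastatin 2 and 17 without rosuvastatin 3 and atorvastatin 2. For pravastatin the genes below control numbered 23 to 33, and for pitavastatin those above control 29 to 32, over all the alternatives of that fit. With no array measure in the fit, quantile normalization gave 29, 13, 18 and 12 of 34 above control in the same order of statins, so the majority also turned for rosuvastatin there, with 16 below. Centring gave 19 of 34 above control for pravastatin, also a turned majority. With the 99th percentile signal of the array in the fit, chosen after the data were seen, 28, 8, 19 and 18 of 34 were above control, with medians of 0.06, -0.04, 0.01 and 0.01, so the majority turned for atorvastatin too. Single mice also weighed on the medians of the fit with no array measure. Without control 1 the pitavastatin median was 0.06 and the pravastatin median -0.16, and without pravastatin 1 the latter was -0.06. The rosuvastatin median was -0.23 without rosuvastatin 2 and 0.004 without rosuvastatin 3, and the atorvastatin median was -0.24 without atorvastatin 4 and 0.01 without atorvastatin 1. Pitavastatin was above control in most members in every one of these fits, and 0 members were called in any of them.

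**Figure D1:**
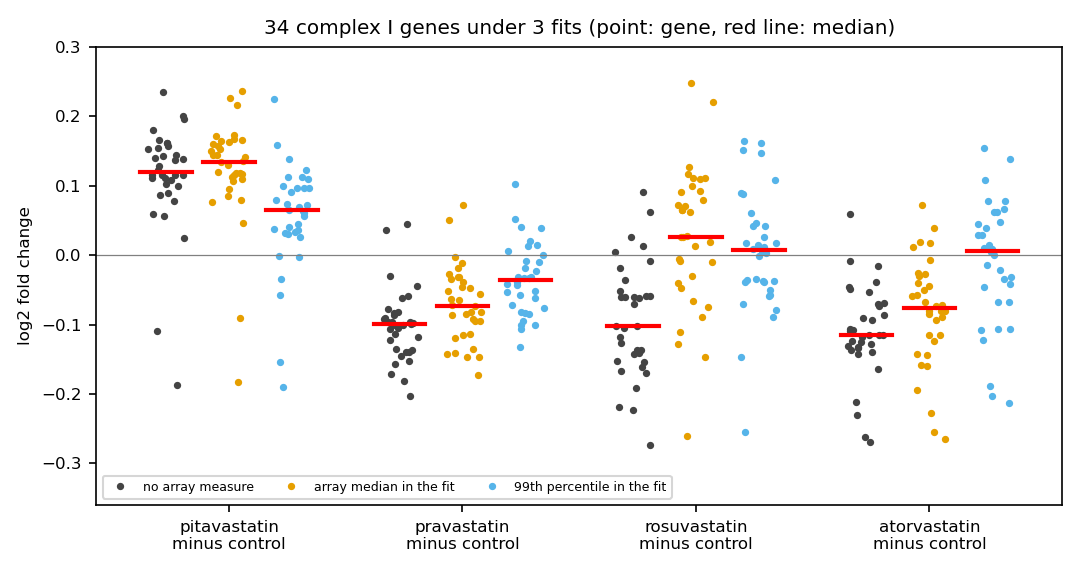
Log2 fold change against control of each of 34 complex I genes (points) with the median (red line), for each statin, in a fit with no array measure, with the array median signal and with the 99th percentile signal of the array. The 3 pitavastatin medians lie above 0 (0.12, 0.135 and 0.06), while the rosuvastatin median moves from -0.10 to 0.03 and 0.01.

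Array by array, the complex was summarised as the median over the 34 genes of the difference from each gene's own mean over 20 arrays. Controls lay at -0.15, 0.10, 0.12 and 0.03, and pitavastatin mice at 0.08, 0.22, 0.09 and 0.21. Pravastatin mice lay at -0.16, -0.16, -0.01 and 0.07. Rosuvastatin mice lay at -0.22, 0.31, -0.30 and 0.01, and atorvastatin mice at -0.43, -0.01, -0.19 and 0.36. The pitavastatin mice were thus all above 0 and close together, while each of the rosuvastatin and atorvastatin groups held both a very high and a very low mouse. Each statin group overlapped with control. The pooled SD between mice of a group was 0.21, larger than the distance of any statin group's mean (0.15, -0.07, -0.05 and -0.07) from the control mean of 0.02. The SD was 0.12 in controls and 0.08, 0.11, 0.27 and 0.33 in the statin groups, in the same order. The pooled value thus comes mostly from the rosuvastatin and atorvastatin mice and is wider than the spread of the control and pitavastatin mice. It is a spread between single mice and not the error of a difference between group means.

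**Figure D2:**
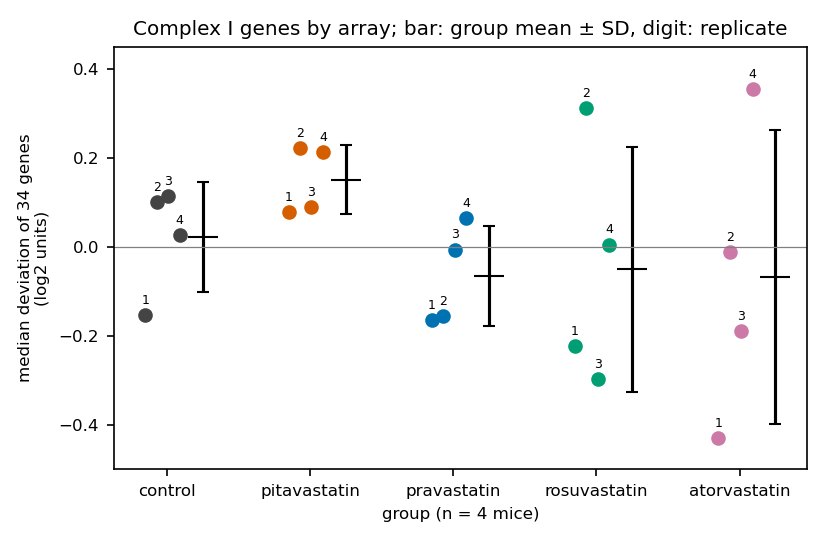
Median deviation of 34 complex I genes on each array (points, digit for the replicate number) by group, with the mean and SD of 4 mice. Atorvastatin mice span -0.43 to 0.36 and pitavastatin mice 0.08 to 0.22, and every group overlaps the control range of -0.15 to 0.12.

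The members moved together from mouse to mouse. With group means removed, the median correlation over 561 pairs of members was 0.85 across the 20 arrays, and 97.9% of pairs were above 0. Over all pairs of the 11229 tested genes the median was 0.02. The 39 tested genes of complexes II to V had a median of 0.88 and the 12 cardiomyocyte markers one of 0.94, so the shared variation was not particular to complex I. With the array median signal removed as well, the members' median was 0.90. These correlations share the arrays and their scaling and are descriptions.

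Brightness measures of the array moved with this shared variation. Over 20 arrays the complex I deviation had a Pearson r of 0.44 (Spearman rho 0.38) with the log2 median signal, 0.41 without rosuvastatin 3 and atorvastatin 2, and 0.44 within groups. With the log2 99th percentile signal, computed without respiratory chain genes, r was 0.96 (rho 0.96), 0.95 without atorvastatin 1 and rosuvastatin 3, and 0.97 within groups. Complexes II to V had r of 0.59 and 0.98 with the same measures, and cardiomyocyte markers 0.66 and 0.97. The cardiomyocyte markers were not left out of the 99th percentile signal, so their r with it is not an independent comparison. The 18 tested assembly factors of complex I, whose products build the enzyme but are not part of it, had -0.51 and -0.06. The first was -0.04 without rosuvastatin 3 and atorvastatin 2, while within groups the 2 values were -0.62 and -0.20. No p is given for these relations, which were 8 in number, and their part in the differences between groups was not tested beyond the fits above. The signal ratio of the 3′ to the 5′ control probe set of Gapdh also differed between arrays. It was highest on rosuvastatin 2 (1.86), atorvastatin 4 (1.83) and pitavastatin 2 (1.81), where the complex I deviation was 0.31, 0.36 and 0.22. It was lowest on rosuvastatin 3 (1.51) and atorvastatin 1 (1.54), with -0.30 and -0.43. Atorvastatin 2 (1.77) and control 1 (1.68) departed from this, with -0.01 and -0.15. This relation was not tested. In bulk tissue, fewer cells of a type and less RNA per cell cannot be told apart.

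**Figure D3:**
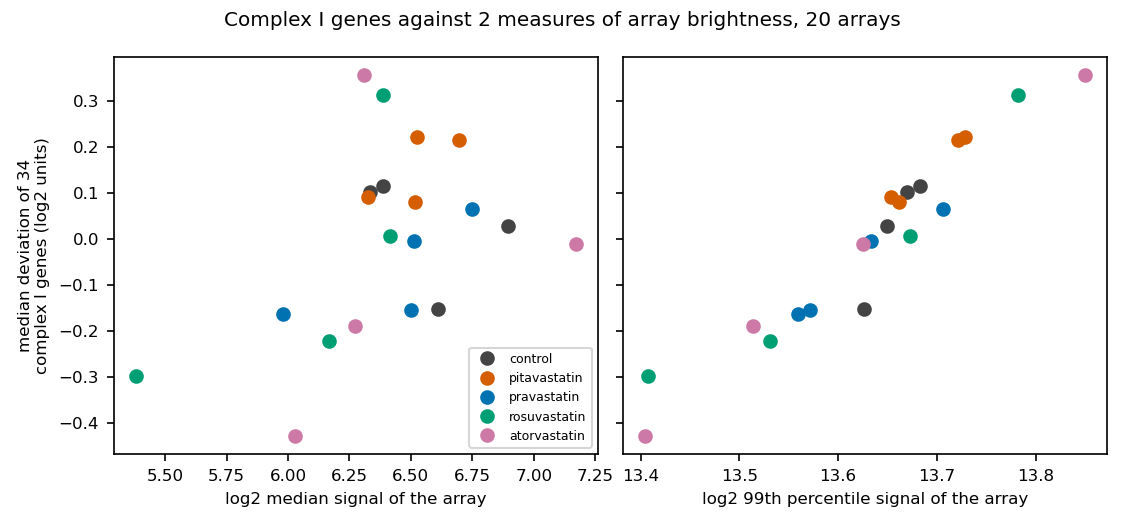
Median deviation of 34 complex I genes on each of 20 arrays against the log2 median signal of the array (left) and its log2 99th percentile signal (right), coloured by group. Points scatter widely on the left (r of 0.44) and lie near a line on the right (r of 0.96).

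The same relation was tested gene by gene within groups. On the array median signal, 14 of 34 members (41.2%) had a called slope by limma, all above 0, against 39.5% of all probe sets called and 24% called above 0. These were Ndufs7, Ndufv1, Ndufv3, Ndufa12, Ndufa5, Ndufa3, Ndufa13, Ndufc1, Ndufc2, Ndufb5, Ndufb6, Ndufb8, Ndufb11 and Ndufa4. The count rested on few arrays: it was 2 without rosuvastatin 3, 7 without atorvastatin 1 and 0 without rosuvastatin 3 and atorvastatin 2 together. The steepest slopes were those of Ndufa13 (0.61 ± 0.20 SE per doubling of the median, adjusted p = 0.0173), Ndufb11 (0.58 ± 0.16, adjusted p = 0.00557) and Ndufv3 (0.57 ± 0.19, adjusted p = 0.0170). Under quantile normalization the Ndufb11 slope turned to -0.03, and under median centring these 3 slopes turned to -0.22, -0.25 and -0.26. The shallowest slopes were those of Ndufa6 (-0.0019 ± 0.14), Ndufa4l2 (0.03 ± 0.15) and Ndufa2 (0.03 ± 0.16), whose signs turned when single arrays were left out. The lowest were those of Ndufa7 (-0.16), Ndufs5 (-0.15) and Ndufs4 (-0.11), and none of these 6 was called. On the 99th percentile signal 28 of 34 members (82.4%) had a called slope, all above 0, against 7.47% of all probe sets and 5.57% called above 0. The median slope of the members was 1.62 log2 units per doubling. The 6 members without a call there were Ndufa4l2, Ndufa7, Ndufa8, Ndufb1, Ndufs4 and Ndufs5. Most members had a mean signal near or above the 99th percentile, while most probe sets were far dimmer. All probe sets are thus not a background of like brightness, and the share called is not read as a trait of complex I. Complexes II to V and cardiomyocyte markers followed the same measure, with r of 0.98 and 0.97, though the markers were not left out of it.

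**Figure D4:**
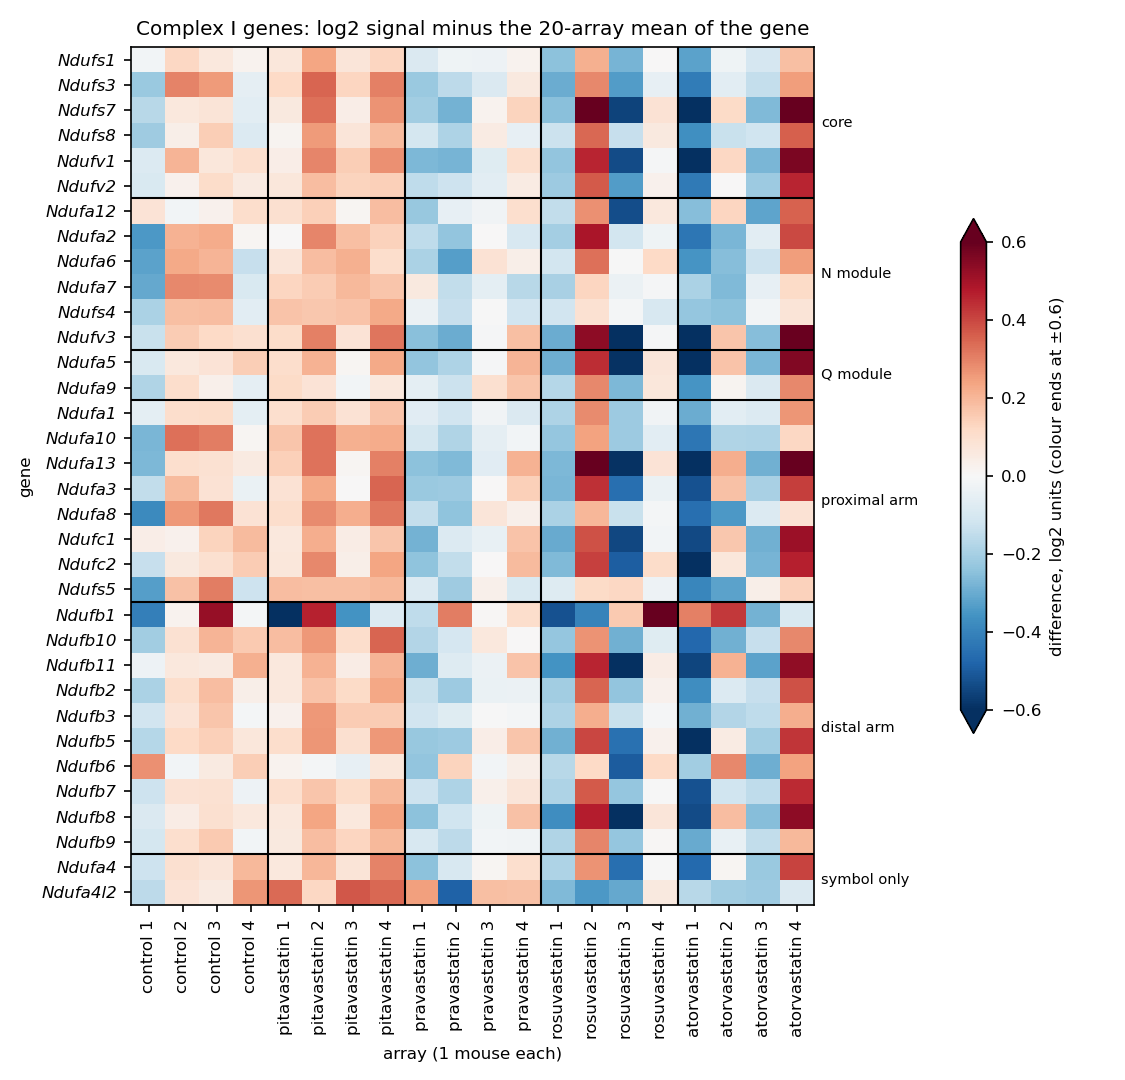
Difference of each of 34 genes (rows, ordered by place in the complex) from its own mean over 20 arrays (columns, by group), in log2 units with colours ending at 0.6 either way. Columns such as atorvastatin 1 (low) and atorvastatin 4 (high) run through nearly all genes, while Ndufb1 and Ndufa4l2 follow their own pattern.

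By its place in the enzyme, the catalytic core came first. Of the 7 nuclear core subunits listed, 6 were analysed here: Ndufv1, which binds the flavin and NADH, Ndufv2 and Ndufs1, which carry iron-sulphur clusters of the N module, and Ndufs3, Ndufs7 and Ndufs8 of the Q module. Their median log2 fold changes were 0.14, -0.09, -0.09 and -0.09 for pitavastatin, pravastatin, rosuvastatin and atorvastatin, with 6, 0, 1 and 0 of 6 above control; with the array median in the fit the counts were 6, 0, 4 and 1. Ndufs7, whose product holds the cluster next to the ubiquinone site, had log2 values of 14.67, 14.90, 14.91 and 14.77 in controls and 14.89, 15.16, 14.88 and 15.11 with pitavastatin. Its log2 fold change with pitavastatin was 0.20 ± 0.23 (SE, n = 4 mice a group), and the groups overlapped. This SE, like the others given for single genes, rests on 1 spread shared by the 5 groups. For Ndufs7 the SD was 0.11 in controls and 0.15, 0.195, 0.49 and 0.54 with pitavastatin, pravastatin, rosuvastatin and atorvastatin. Its atorvastatin values, 14.21, 14.95, 14.57 and 15.46, spread on both sides of the controls. Ndufv1 had the lowest value of all members with pravastatin, -0.20 ± 0.21 (-0.15 with the array median in the fit, adjusted p = 0.992 and 0.866 by limma). Its pravastatin values were 14.19, 14.18, 14.38 and 14.56 against 14.38, 14.66, 14.53 and 14.56 in controls, so that 2 mice lay below every control, 1 was level with the lowest control and 1 was inside the control range. Ndufs3 was the next lowest of the core subunits, with -0.17 ± 0.15. Ndufs8 was among the highest with rosuvastatin (0.06 ± 0.13, and -0.04 without rosuvastatin 2).

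The 6 tested accessory subunits of the N module had medians of 0.14, -0.11, -0.07 and -0.12, with 6, 0, 2 and 0 of 6 above control. Ndufs4, a subunit added late in assembly whose loss causes Leigh syndrome in people, had the smallest p of all members with pitavastatin (0.112 unadjusted, 0.9999 adjusted by limma). Its controls read 13.16, 13.53, 13.53 and 13.28 and its pitavastatin mice 13.52, 13.51, 13.52 and 13.58. The pitavastatin mice lay close together, at or near the level of the 2 brighter controls, and the log2 fold change was 0.15 ± 0.09 (SE). Averaged over all tested probe sets of the gene it was -0.01. The 2 other tested probe sets gave 0.02 and -0.20, so this direction was not shared by all of them. Ndufs4 read 13.31, 13.21, 13.35 and 13.23 with pravastatin, 13.24, 13.44, 13.34 and 13.25 with rosuvastatin and 13.12, 13.10, 13.33 and 13.43 with atorvastatin. All of these lay below the lowest pitavastatin mouse, 13.51. Against pravastatin this ordering was seen in 15 of 34 members (44.1%) and 4.48% of all probe sets. It was seen in 3 members (8.82%) and 3.79% for rosuvastatin, and in 6 members (17.6%) and 3.81% for atorvastatin. The members varied together, so these counts are not independent results. Ndufs4 was singled out for its pitavastatin values, so nothing is read from its ordering. Ndufa6, which belongs to a family of small proteins that bind the acyl carrier subunit, had the highest value with rosuvastatin (0.09 ± 0.14). Of the 2 tested Q module accessory subunits, Ndufa9 was the highest member with pravastatin (0.04 ± 0.13) and near 0 with atorvastatin (-0.01 ± 0.13), and Ndufa5 held the called slope listed above.

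In the proximal membrane arm, 8 tested accessory subunits had medians of 0.14, -0.10, -0.10 and -0.14, with 8, 0, 1 and 0 of 8 above control. Ndufa8 and Ndufa10 had the lowest values of all members with atorvastatin. Ndufa8 read 12.82, 12.93, 13.19 and 13.36 with atorvastatin and 12.89, 13.53, 13.59 and 13.36 in controls. Control 1 was as low as the atorvastatin mice and the other controls were as high as or above the highest of them. The log2 fold change was -0.27 (95% interval -0.56 to 0.03; adjusted p = 0.964 by limma), and -0.42 without control 1. Ndufa10, which has the fold of a nucleoside kinase, read 13.49, 13.74, 13.73 and 14.04 with atorvastatin and 13.65, 14.25, 14.23 and 13.93 in controls. Its log2 fold change was -0.26 (95% interval -0.54 to 0.02), -0.38 without control 1, and it was also among the lowest with pravastatin (-0.18 ± 0.13, and -0.30 without control 1). Its pravastatin mice, 13.82, 13.74, 13.87 and 13.90, lay between control 1 and control 4. Ndufa13, also known as a cell death regulator, was among the 3 highest with pitavastatin (0.20 ± 0.25, and 0.11 without control 1). Ndufc1 was near 0 with pitavastatin (0.03 ± 0.19) and among the lowest with rosuvastatin (-0.22 ± 0.19, turning to 0.16 when arrays were centred on their medians). Ndufs5 was slightly above control with rosuvastatin (0.03 ± 0.13), with no stable sign when single mice were left out (-0.09 to 0.13).

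Of 12 listed accessory subunits of the distal membrane arm 10 were tested, with medians of 0.11, -0.10, -0.09 and -0.11 and 8, 1, 0 and 1 of 10 above control. The 2 below control with pitavastatin, the only 2 of all 34, were Ndufb1 (-0.19 ± 0.29) and Ndufb6 (-0.11 ± 0.14). Ndufb6 was also among the lowest with rosuvastatin (-0.22 ± 0.14), which was -0.01 with the array median in the fit and 0.16 with centred arrays. A second tested probe set of Ndufb6 gave 0.06 with pitavastatin. Ndufb1 was dim, its values ran from 6.14 to 7.44 with the widest spread within groups (0.40 SD), and its r with the median deviation of the other members, over 20 arrays with group means removed, was 0.04. Ndufb5, by contrast, followed the others with r = 0.99, Ndufb2 with 0.98 and Ndufs7 with 0.97. Ndufb7 was the only member of the 34 whose 4 statin mice all lay on 1 side of all controls in any comparison, wholly above them with pitavastatin, and it is named after its values were seen. Of all probe sets 0.924% were wholly above control with pitavastatin and 0.764% wholly below. The shares above and below were 1.92% and 1.03% for pravastatin, 1.87% and 2.66% for rosuvastatin and 0.799% and 0.573% for atorvastatin. It read 14.11, 14.17, 14.12 and 14.20 with pitavastatin and 13.88, 14.09, 14.10 and 13.98 in controls, a log2 fold change of 0.14 with an adjusted p of 0.9999 by limma. Over all members with several tested probe sets, 117 of 132 comparisons of another probe set with the one used had the same sign.

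Ndufa4l2 was the member with the most distinct pattern over the groups. Controls read 8.18, 8.42, 8.40 and 8.61, and pitavastatin mice 8.68, 8.47, 8.71 and 8.69. Pravastatin mice read 8.59, 7.86, 8.52 and 8.52, rosuvastatin mice 8.08, 7.999, 8.04 and 8.40 and atorvastatin mice 8.18, 8.14, 8.12 and 8.25. Every rosuvastatin and atorvastatin mouse lay below every pitavastatin mouse, and each of these groups overlapped with control. The same ordering was seen in 3 members (8.82%) and 3.79% of all probe sets for rosuvastatin. For atorvastatin it was seen in 6 members (17.6%) and 3.81% of all probe sets. The gene is described for this pattern, which was not tested further. The log2 fold changes against control were 0.23 ± 0.15, -0.03 ± 0.15, -0.27 ± 0.15 and -0.23 ± 0.15 (SE; pitavastatin, pravastatin, rosuvastatin and atorvastatin), none called. The pravastatin value was 0.14 without pravastatin 2, and the rosuvastatin value 0.11 with centred arrays. Its r with the median of the other members, computed as for Ndufb1, was 0.17. Ndufa4, the other gene matched by symbol only, went with the rest of the complex (r = 0.95).

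**Figure D5:**
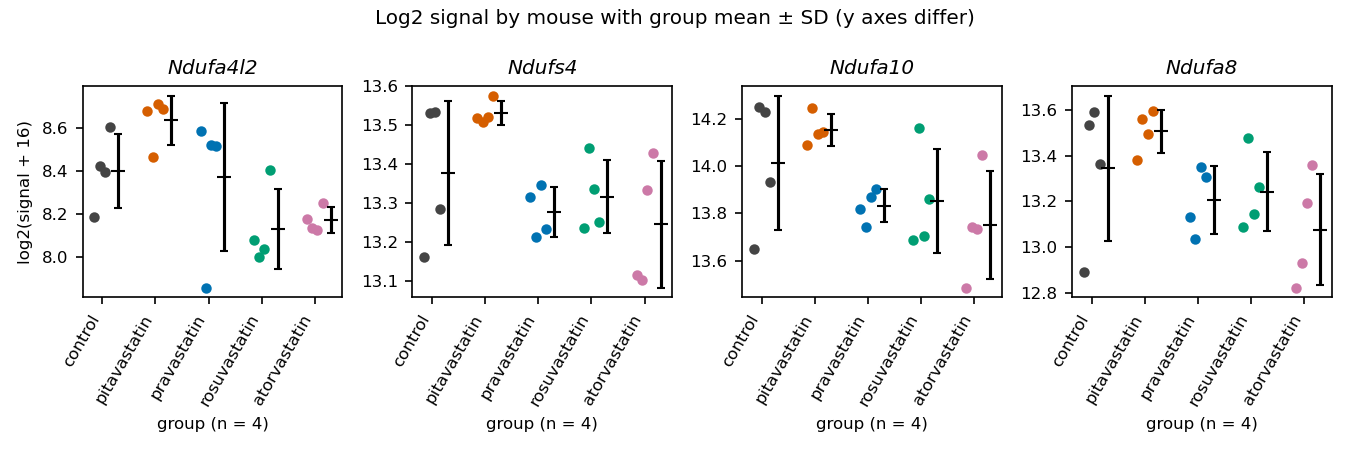
Log2(signal + 16) of Ndufa4l2, Ndufs4, Ndufa10 and Ndufa8 in each mouse (points) with the group mean and SD (n = 4); the y axes differ. For Ndufa4l2 and Ndufs4 the pitavastatin mice lie above all rosuvastatin and atorvastatin mice, and for Ndufa8 and Ndufa10 control 1 lies well below the other controls.

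Over the 5 groups together, the moderated F test of limma called 0 of 34 members, against 0.00444% of all probe sets, and 0 of 34 against 0.0222% with the array median in the fit. At an unadjusted p of limma under 0.05 it passed 3 members (8.82%), against 6.24% of all probe sets. These were Ndufa4l2, Ndufs4 and Ndufa10, with unadjusted values of 0.0209, 0.0448 and 0.0495 in that model. With the array median in the fit it passed 2 members (5.88%), Ndufa4l2 and Ndufs4, against 11.8% of all probe sets. Among the 6 pairs of statins, 0 of 34 members were called in any pair by limma in either fit, the lowest adjusted p being 0.290 without an array measure (Ndufa4l2 between pitavastatin and atorvastatin) and 0.114 with the array median in the fit. The background in these pairs was at most 0.00888% of all probe sets without an array measure and 0.0222% with the array median in the fit. At an unadjusted p under 0.05, 9 of 34 members (26.5%) passed between pitavastatin and atorvastatin against 12.2% of all probe sets. Between pitavastatin and pravastatin 5 members (14.7%) passed against 8.64%, and between pitavastatin and rosuvastatin 5 (14.7%) against 11.7%. The 3 pairs without pitavastatin had 0 of 34, against 3.19%, 3.11% and 5.49%. With the array median in the fit, 9 members (26.5%) passed between pitavastatin and atorvastatin against 19.2%. In that fit 6 (17.6%) passed between pitavastatin and pravastatin against 14.8%. Between pitavastatin and rosuvastatin 3 (8.82%) passed against 12.7%, fewer than the background. The members varied together, so these counts are not independent results. Doses differed in every pair, so these are differences between those doses.

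Genes around complex I were taken from lists set by function. The 39 tested genes of complexes II to V had medians of 0.09, -0.12, -0.14 and -0.12, with 35, 2, 2 and 1 of 39 above control and 0 called. Ndufab1 gave 0.13, -0.11, -0.11 and -0.16. The 18 tested assembly factors gave 0.09, -0.02, 0.06 and -0.10, with 16, 8, 12 and 4 above control. The 11 listed regulators of respiratory genes, among them Ppargc1a and Esrra, gave -0.02, -0.01, 0.004 and -0.04, with 0 called. Differences between these lists and the members were not tested.

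Markers of heart muscle varied with complex I. The 12 cardiomyocyte markers had medians of 0.09, -0.12, -0.19 and -0.12, with 9, 0, 0 and 0 of 12 above control; with the array median in the fit rosuvastatin had 11 of 12 above control. Their summed signal ran from 369286 to 446354 in controls, from 402867 to 463523 with pitavastatin and from 325983 to 451250 with pravastatin. It ran from 249335 to 529420 with rosuvastatin and from 246345 to 562967 with atorvastatin, the same 2 groups in which the complex I deviation was widest. The summed signal of 10 fibroblast markers ran from 25195 to 27253 in controls and from 20386 to 31335 over the statin groups, and that of 10 endothelial markers from 8359 to 9334 and from 7990 to 10888. The 10 macrophage markers summed to 23710 to 26522 in controls and 18614 to 32580 over the statin groups, and 7 of 8 smooth muscle and pericyte markers to 17978 to 25988 and 18256 to 28249. No marker value was at 0. Of 4 atrial markers 2 passed the filter, of 5 skeletal muscle markers 1, of 3 blood markers 1 and of 5 adipocyte markers 0. The 2 atrial markers, Nppa and Myl4, summed to 6931 to 9209 in controls and 7295 to 15485 with pitavastatin. With pravastatin, rosuvastatin and atorvastatin they reached 8450, 11909 and 10436 at most. Their median deviation was highest on pitavastatin 2 (1.57) and rosuvastatin 3 (1.27), where that of complex I was 0.22 and -0.30. The part of these cell types in the complex I values was not tested.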

How the data were processed

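The deposited values are linear signal intensities. Per the submitters' processing notes the authors used MAS5, with its version not given in the sources used here. Each array's mean without its lowest and highest 2% was 500.0, so arrays had been scaled to 1 level; all values were above 0. The 64 control probe sets were left out of 45101, and 45037 remained. After adding 16 and taking log2, the brighter 50% by mean (22518) were tested. The annotation gives 34945 probe sets 1 symbol. Precision is limited by 4 arrays a group. Differences were fitted with limma 3.58.1 in R 4.3.3, with 1 mean per group over all 20 arrays and a prior variance that follows mean signal (15 residual degrees of freedom, 4.23 from the prior), and again with each array's log2 median signal as covariate. P values were adjusted by Benjamini-Hochberg over all tested probe sets, with calls at 0.05. Single array measures were compared by two-sided exact permutation. The procedure was tested on simulated data.

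Members and lists were chosen with earlier results of these data known. Genes named were the 7 core subunits, the 3 highest and 3 lowest fold changes and the smallest p for each statin, called members, the 3 steepest and 3 shallowest slopes on the array median (the 3 lowest were added after their values were seen), and those matched by symbol only or under the filter. One listed gene is not analysed here. Alternatives were quantile normalization, median centring, pseudocounts of 1 and 64, no filter, no trend, the mean of all probe sets of a gene, a replicate block and leaving out each array. The 99th percentile covariate, and leaving out rosuvastatin 3 with atorvastatin 2, were added after seeing the data. Promoters came from RefSeq (GRCm38.p6).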

Additional observations from a re-analysis of the deposited data

Results flagged for a closer look

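Of 155 groups of 4 mice examined (28 named genes and array summaries over 5 groups), 3 held a mouse far from the others by Dixon's criterion, where chance gives about 1 in 20. Ndufa13 in control 1 was 14.53, with the other controls at 14.85 to 14.90. Ndufa4l2 in pitavastatin 2 was 8.47, with the other pitavastatin mice at 8.68 to 8.71. Ndufa4l2 in pravastatin 2 was 7.86, with the other pravastatin mice at 8.52 to 8.59.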

How the results depend on the processing

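The 16 main results, medians and counts of calls, were recomputed in 474 alternatives, of which 467 were labelled as kept. A count was kept if it was equal or changed little. A median was kept if it moved by less than 0.21, the pooled SD between mice, whatever its sign. The medians were all smaller than 0.21 in size, so this label does not show that their direction held. Leaving out single arrays turned the sign of the rosuvastatin median (-0.23 to 0.004) and the atorvastatin median (-0.24 to 0.01), both labelled as kept. No complex I gene was called against control, among the 5 groups or between statins in any of them. The exceptions were the count of slopes on the array median and 1 median. The 14 called slopes became 8 under quantile normalization, 27 with each array centred on its median, 1 with a replicate block and 0 without rosuvastatin 3 and atorvastatin 2. Leaving out single arrays gave 2 (without rosuvastatin 3) to 17 (without atorvastatin 4). The rosuvastatin median moved to 0.28 under median centring. The cause was not tested.

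Among 34 values of named genes in 1011 alternatives, 69 changed sign, 42 of them when 1 array was left out. Under quantile normalization Ndufc1 with pitavastatin was -0.037, Ndufa4l2 with pravastatin 0.0098, Ndufa9 and Ndufs7 with atorvastatin 0.052 and 0.071, and the slopes of Ndufb11, Ndufa4l2 and Ndufa2 were -0.025, -0.22 and -0.17, with that of Ndufa6 at 0 to 4 decimals. Under median centring Ndufa4l2 was 0.072 with pravastatin, Ndufa4l2, Ndufb6 and Ndufc1 were 0.11, 0.16 and 0.16 with rosuvastatin, Ndufa9 and Ndufs7 were 0.081 and 0.074 with atorvastatin, and the slopes of Ndufa13, Ndufb11, Ndufv3, Ndufa4l2 and Ndufa2 were -0.22, -0.25, -0.26, -0.80 and -0.80. With a replicate block the Ndufa2 slope was -0.18. With the mean of all probe sets Ndufs4 with pitavastatin was -0.0087. With the 99th percentile in the fit Ndufc1 with pitavastatin was -0.057, and Ndufa9 and Ndufs7 with atorvastatin were 0.078 and 0.16. Without rosuvastatin 3 and atorvastatin 2, Ndufs5 with rosuvastatin was -0.0047, Ndufb1 with atorvastatin -0.053 and the Ndufa6 slope 0.065. Leaving out single arrays turned the sign of Ndufc1 with pitavastatin (-0.0064 to 0.057); of Ndufa9, Ndufb1 and Ndufa4l2 with pravastatin (-0.0074 to 0.094, -0.11 to 0.20 and -0.10 to 0.14); of Ndufa6, Ndufs8 and Ndufs5 with rosuvastatin (-0.013 to 0.17, -0.042 to 0.12 and -0.086 to 0.13); and of Ndufb1, Ndufa9 and Ndufs7 with atorvastatin (-0.088 to 0.22, -0.12 to 0.10 and -0.24 to 0.18); and of the Ndufa6, Ndufa4l2 and Ndufa2 slopes (-0.074 to 0.095, -0.034 to 0.11 and -0.074 to 0.17).

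The replicate numbers gave no clear pairing of the mice: same-numbered arrays had a median r of 0.08 (-0.54 to 0.69), against -0.04 for different numbers. Of same-numbered pairs 19 of 40 were over 0.1, against 46 of 120 of the others. A total of 7 of 20 arrays were closest to one of their own number. Whether the numbers mark a batch was not tested beyond the replicate block. Besides the slope calls given above, the replicate block changed no call. With 4 mice a group, 95% intervals of single genes reached 0.19 to 0.60 to either side (median 0.32), which limits the differences that could be detected, and Ndufb4 and Ndufb1 are further limited by their low signal.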
